A study of Mus musculus with 2 samples.

Results

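The genes described here make, cut and bind hyaluronan, a long sugar polymer of the extracellular matrix. They are the synthases Has1, Has2 and Has3, the hyaluronidases Hyal1 and Hyal2, the receptor Cd44, the link proteins Hapln1, Hapln3 and Hapln4, and Tnfaip6, a secreted hyaluronan-binding protein. These 10 genes were listed by symbol, out of 20433 genes that could be named on the array, and were found on it through the RefSeq accession of each probe. Expression was measured in ATDC5 cells, a mouse chondrocyte cell line, as 2 stable lines obtained with lentivirus. The control line carried the label overexpressing GFP, a fluorescent protein, and the other line the label overexpressing HES1, a repressor of transcription that Notch signalling induces; neither label names a promoter or a clone. Both lines were grown as monolayers for 3 days on 60 mm dishes, and the total RNA of each was hybridised to 1 single-colour Agilent array. With 1 array per group there was no replicate check, no test was possible, and no p-value is given.

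Hyaluronan is spun out through the plasma membrane by the HAS enzymes from UDP-glucuronic acid and UDP-N-acetylglucosamine. In cartilage it forms the backbone to which aggrecan is fixed by link protein, and CD44 anchors this coat to the chondrocyte surface. It is broken down by cell-surface and secreted depolymerising proteins, by hyaluronidases and by lysosomal glycosidases.

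Each array's signals, in scanner units, were scaled to a 75th percentile of 1057.2, so that a probe can be read across the arrays but never against another probe. A difference is the log2 signal of the HES1 array minus that of the GFP array, and ± gives its technical error from the scanner's error model, which leaves out any difference between cultures. The median of that error over all measured genes was 0.20. Differences beyond that size were common: of 14273 measured genes, 2325 lay between -0.2 and 0.0 and 1968 between 0.0 and 0.2. The share of spots well above background was 54.6% for the GFP array and 56.6% for the HES1 array. A probe that the scanner did not flag as well above background is called below background here. Mouse Hes1 itself was below background on both arrays (10.2 and 10.3), so neither label could be checked by it. Of 12 chondrocyte markers 8 were well above background on both arrays, including Col2a1 and Sox9, while Matn1, Matn3, Snorc and Hapln1 were so on neither. The summed signal of these markers, carried mostly by Col2a1, was 20364 on the GFP array, against 12413 on the HES1 array. Col2a1 differed by -0.90, Col11a1 by -0.89 and Comp by -0.88. The other detected markers differed less: Acan by -0.37, Col9a2 by -0.29, Sox9 by -0.19, Col11a2 by -0.16 and Col9a1 by 0.10. The part of these marker differences in those described below was not tested. In such bulk RNA, fewer cells of a type and less RNA per cell cannot be told apart.

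Promoters from RefSeq (GRCm38.p6) were matched for 7 of the 10 genes, and not for Has2, Has3 and Hapln4. The 3 shown belong to Hyal1, the member furthest apart between the arrays, to Cd44, which differed by a like amount at 4 probes, and to Tnfaip6, the member that was lower on the HES1 array. Each run holds the 250 bases before the annotated start, 5′ to 3′ on the gene's strand. Capitals mark matches, on either strand, to TGANTCA, the AP-1 motif, and to CACGNG and CACNAG, motif forms to which HES proteins are known to bind. The last 2 overlap where the letters are CACGAG.
Hyal1, chr9:107576700-107576949, plus strand: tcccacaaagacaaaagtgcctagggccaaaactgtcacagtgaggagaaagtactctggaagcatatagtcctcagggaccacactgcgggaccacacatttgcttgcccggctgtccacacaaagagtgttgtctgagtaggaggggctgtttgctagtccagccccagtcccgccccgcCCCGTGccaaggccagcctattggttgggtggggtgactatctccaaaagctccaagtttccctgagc
Cd44, chr2:102901666-102901915, minus strand: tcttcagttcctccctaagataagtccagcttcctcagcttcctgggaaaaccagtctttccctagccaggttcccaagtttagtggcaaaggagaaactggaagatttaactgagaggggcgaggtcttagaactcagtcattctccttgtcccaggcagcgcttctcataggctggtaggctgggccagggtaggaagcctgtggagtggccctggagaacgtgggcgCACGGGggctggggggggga
Tnfaip6, chr2:52037863-52038112, plus strand: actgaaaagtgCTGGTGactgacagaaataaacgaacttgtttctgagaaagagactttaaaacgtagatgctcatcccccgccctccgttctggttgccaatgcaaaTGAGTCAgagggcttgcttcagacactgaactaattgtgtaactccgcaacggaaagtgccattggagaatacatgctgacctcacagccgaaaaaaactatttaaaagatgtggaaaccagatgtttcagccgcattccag

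The searched window also took in the 50 bases after the start, for 300 bases in all. Of the 7 member promoters, 1 held the AP-1 motif, that of Tnfaip6, from 142 to 136 bases before the start. CACGNG was found in 2, those of Hyal1 and Cd44, and CACNAG in 3, those of Tnfaip6, Hyal1 and Hapln1. Among 32851 RefSeq promoter windows of the same length, 7.8% held TGANTCA, 27.5% CACGNG and 42.5% CACNAG. A match describes the letters only, and the binding of HES1 was not measured.

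Of the 10 members, 6 were well above background on both arrays and Hyal1 on the HES1 array only, which makes 7 measured, while Has1, Has3 and Hapln1 were below it on both. Hyal1 was at least 2-fold higher on the HES1 array, 0 members were at least 2-fold lower, and the other 6 measured members lay within 2-fold. Over all 14273 measured genes, 11.1% were higher by that much and 4.95% lower, so 1 of 7 is near the background. The median difference of the measured members was 0.31, beside -0.06 for all measured genes, and 6 of the 7 differences were above 0, of which that of Hapln4 changed sign with the scaling. Over all measured genes, 6426 of 14273 were above 0. Under the normexp correction the median was 0.15. At 1.5-fold, 3 members were higher (Hyal1, Has2 and Cd44) and 0 lower, where 17.4% and 14.6% of all measured genes were.

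**Figure D1:**
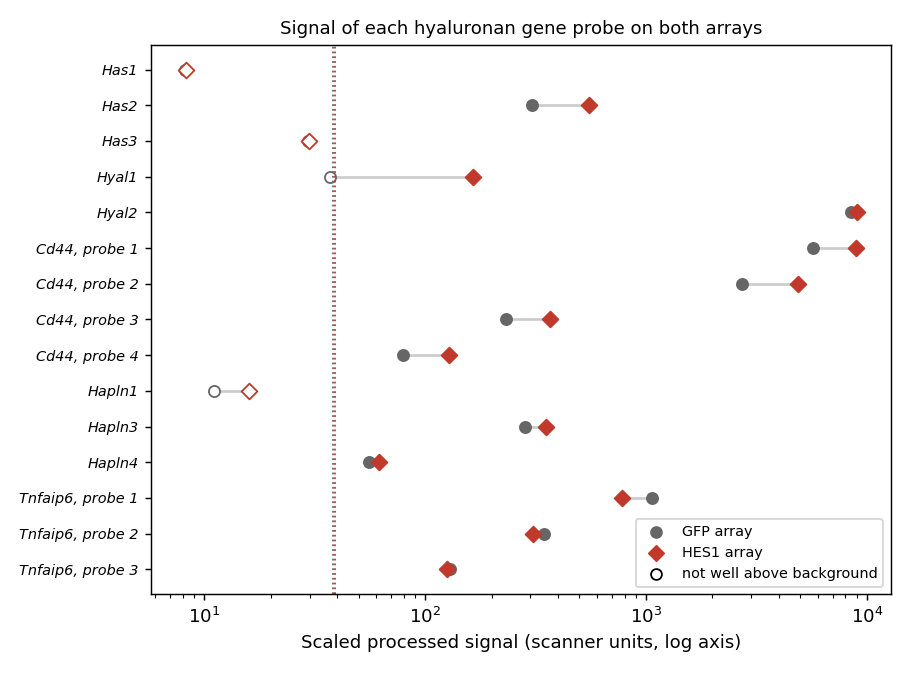
Scaled processed signal of each probe of the 10 hyaluronan genes, in scanner units on a log axis, on the GFP array (circles) and the HES1 array (diamonds), with 1 array per group. Open symbols mark a probe not well above background, and the dotted lines show the lowest signal well above background on each array (38.1 and 39.0); the Has2, Hyal1 and Cd44 pairs are spread with the HES1 array on the right, and the Has1, Has3 and Hapln1 symbols are open.

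Among the synthases, Has2, the main synthase of mesenchymal and cartilage cells, was the only member detected. Its probe (NM_008216) read 305 on the GFP array, against 550 on the HES1 array. The HES1 array was 1.81-fold higher, a difference of 0.85 ± 0.21, which is larger than the technical error. As high or higher differences were seen for 12.8% of all measured genes. Has1, a synthase with low activity in most tissues, read 8.15 and 8.23, and Has3, which makes shorter chains, read 29.5 and 29.9. Both stayed below background on both arrays, so no fold is given for them. Under a normexp background correction the difference of Has2 was 0.60.

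Among the hyaluronidases, the arrays differed at Hyal1 and not beyond the technical error at Hyal2. Hyal1, a lysosomal hyaluronidase that cuts hyaluronan to small fragments, read 37.0 on the GFP array, where it was not well above background, and 164 on the HES1 array (NM_008317). Taken against the lowest detected signal of the GFP array (38.1), the bound was 4.31-fold higher on the HES1 array. Brighter probes could also fail the background check, as Ptx3 did at 46.6, so this bound is not a strict limit. The measured difference of Hyal1 was 2.15 ± 0.47, and 5.07% of all measured genes were as high or higher. Under the normexp correction the log2 difference of Hyal1 was 0.66, which is within 2-fold and ends the call. That correction adds an offset of 50 to every signal, which by construction shrinks the differences of dim probes. Hyal2, a membrane-anchored hyaluronidase that cuts long chains, read 8475 and 9023 (NM_010489), a difference of 0.09 ± 0.20. In the RefSeq annotation the Hyal2 and Hyal1 genes follow each other on mouse chromosome 9 with 0 genes starting between them, and Hyal3 lies on the other side of Hyal1 with 1 gene between. Hyal3, a relative with little known activity of its own, was below background on both arrays at 10.7 and 18.2. The 3 neighbours were therefore read differently: Hyal2 bright and alike on both arrays, Hyal1 seen on the HES1 array only, and Hyal3 on neither.

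Cd44, the main cell-surface receptor for hyaluronan, was read by 4 probes, which the files all list under 1 RefSeq transcript (NM_009851), and the HES1 array was higher at each. The brightest probe read 5733 on the GFP array, against 8941 on the HES1 array, 1.56-fold higher, with a difference of 0.64 ± 0.20. The next brightest read 2709 and 4900 (0.85 ± 0.20). The dimmer pair read 233 and 367 (0.66 ± 0.21), and 79.4 and 128 (0.69 ± 0.30). The 4 probes share the 2 RNA samples and so are not replicates of the lines, but they spanned 0.64 to 0.85 and all exceeded their technical error. By its brightest probe, 16.2% of all measured genes were as high or higher than Cd44.

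**Figure D2:**
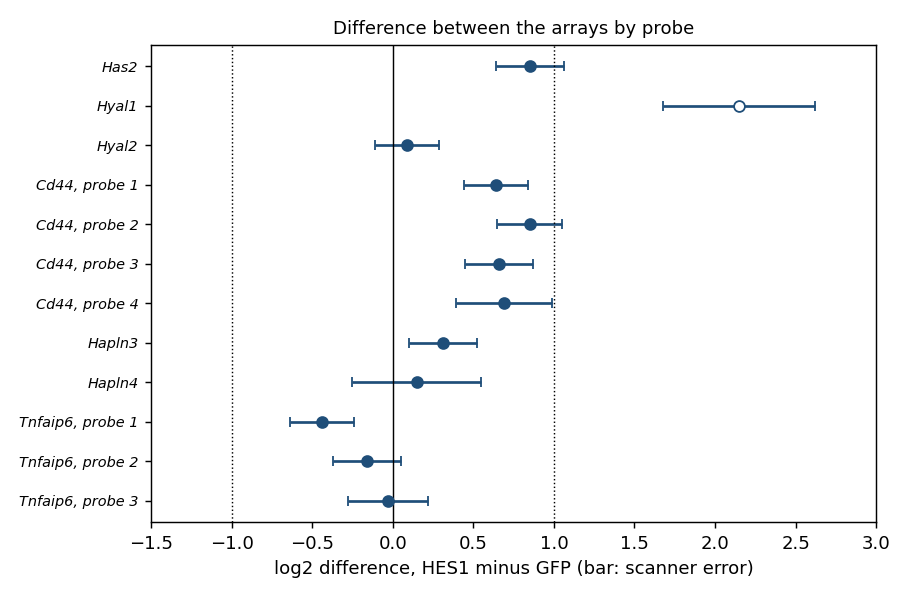
Log2 difference, HES1 minus GFP, of each member probe seen on at least 1 array, with bars of ± the scanner's technical error, 1 array per group and dotted lines at 2-fold. The Hyal1 point is open because its GFP signal was not well above background; the 4 Cd44 probes lie between 0.64 and 0.85, and the 3 Tnfaip6 probes between -0.44 and -0.03.

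The link proteins clamp proteoglycans to hyaluronan. Hapln1, the cartilage link protein, read 11.1 and 16.0 and stayed below background on both arrays (NM_013500), and its measured difference had an error of 1.57, so no fold is given. Hapln3, a link protein found outside cartilage as well, read 283 and 351, a difference of 0.31 ± 0.21. Hapln4, a link protein best known from brain, read 55.9 and 62.0, with a difference of 0.15 ± 0.40 that lay inside its error. The sign of the Hapln4 difference was not stable, at -0.04 after quantile normalization and -0.12 under the normexp correction. The link protein that cartilage is known for was thus not detected in either line, while the other 2 measured here differed little between the arrays.

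Tnfaip6 encodes TSG-6, which is known to be induced by inflammatory cytokines and to transfer the heavy chains of inter-alpha-inhibitor onto hyaluronan. It was read by 3 probes of 1 transcript (NM_009398), and none was higher on the HES1 array. The brightest read 1062 on the GFP array, against 782 on the HES1 array, 1.36-fold lower, a difference of -0.44 ± 0.20. The other probes read 345 and 308 (-0.16 ± 0.21) and 130 and 126 (-0.03 ± 0.25), both inside their technical error. The median over the 3 probes was -0.16, so the size of this difference depends on the probe. By the brightest probe, 21.4% of all measured genes were as low or lower. The partners that TSG-6 works with were dim: Itih1, a heavy chain of inter-alpha-inhibitor, read 35.9 and 51.3 and was seen on the HES1 array only. Itih2, the partner heavy chain, read 39.3 and 50.7 (0.37 ± 0.42). Ambp, the precursor of the light chain, and Ptx3, a pentraxin that binds TSG-6 in hyaluronan matrices, were not well above background on either array (7.77 and 17.1 for Ambp, 46.6 and 41.1 for Ptx3).

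**Figure D3:**
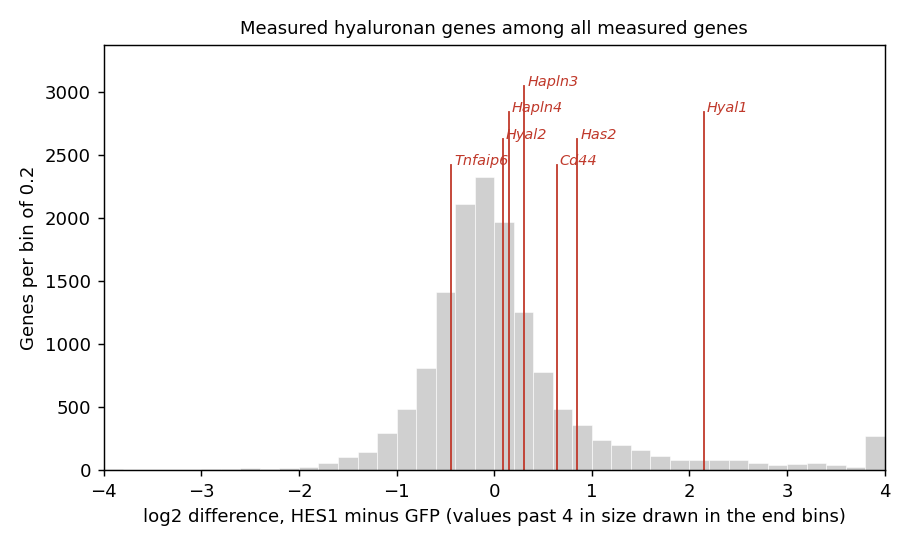
Histogram of the log2 difference, HES1 minus GFP, of all 14273 measured genes, with red lines at the 7 measured hyaluronan genes, from 1 array per group. Tnfaip6 stands at -0.44, Hyal2, Hapln4, Hapln3, Cd44 and Has2 between 0.09 and 0.85, and Hyal1 at 2.15, from a GFP signal not well above background.

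Beyond the members, 39 other genes of hyaluronan metabolism and binding were listed. Of these 26 were measured, 3 were at least 2-fold higher on the HES1 array (Stab2, Vcan and Tlr2), 1 was at least 2-fold lower (Hmmr) and 22 lay within 2-fold. Their median was 0.25, and 0.066 under the normexp correction. The share past 2-fold, 3 of 26 and 1 of 26, is near the 11.1% and 4.95% of all measured genes.

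The enzymes that supply the 2 UDP-sugars differed little. All 7 were measured on both arrays and lay within 2-fold, from -0.51 to 0.25, with a median of -0.02. Ugdh, which makes UDP-glucuronic acid, read 31489 and 37309 (0.24 ± 0.20). On the UDP-N-acetylglucosamine side, Gfpt1, the first enzyme of hexosamine synthesis, read 14235 and 10409 (-0.45 ± 0.20), and its second probe gave -0.51. Uap1, the last enzyme of that route, had the largest difference of the group, with 13391 and 9384 (-0.51 ± 0.20). Gfpt2, which catalyses the same first step as Gfpt1, read 124 and 148 (0.25 ± 0.25). Between these steps, Gnpnat1 was at 0.12 and Pgm3 at -0.02 by the brightest probe, with a second probe at -0.16 and -0.54. Of the hexosamine enzymes, Gfpt1 and Uap1 were lower on the HES1 array beyond their technical error, as was Pgm3 by its second probe only. Such values were common: 20.9% of all measured genes were as low or lower than Gfpt1 and 17.6% than Uap1. The readings above 0, of Gfpt2 and Gnpnat1, were about the size of their technical error or smaller.

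Of 10 other genes of hyaluronan breakdown, 5 were measured and all lay within 2-fold, between -0.89 and 0.93. Cemip, a secreted protein that drives hyaluronan depolymerisation, was the highest: its probes read 2133 and 4061 (0.93 ± 0.20) and 436 and 826 (0.92 ± 0.21). After a loess fit its difference was 1.07, past 2-fold. Cemip2, a transmembrane relative with hyaluronidase activity, went the other way with 4506 and 3145 (-0.52 ± 0.20). Gusb, the lysosomal beta-glucuronidase, read 18845 and 10142 over 10 spots, a difference of -0.89 with an SD of 0.04 between spots. Hexa, the alpha subunit of lysosomal beta-hexosaminidase, read 15002 and 23231 (0.63 ± 0.20). The breakdown genes did not share a direction: Cemip and Hexa were higher and Cemip2 and Gusb lower, each beyond its technical error. Of all measured genes, 11.9% were as high or higher than Cemip and 16.4% than Hexa. As low or lower were 17.2% for Cemip2 and 6.50% for Gusb.

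**Figure D4:**
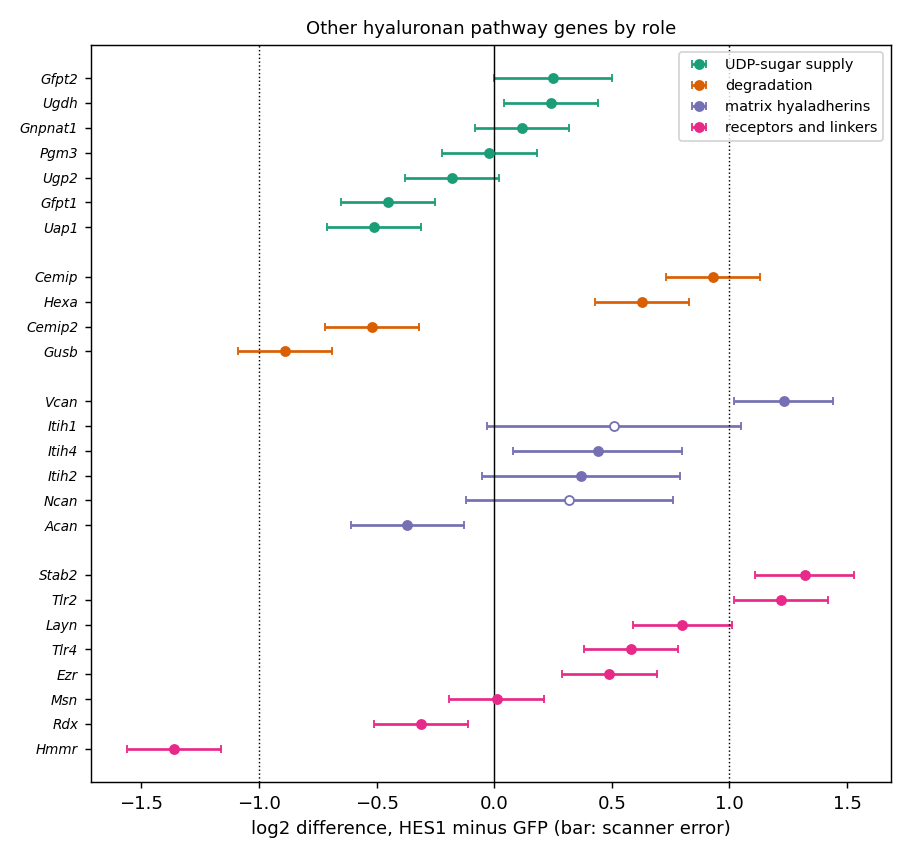
Log2 difference, HES1 minus GFP, of the 26 measured genes of the wider hyaluronan list except 1 that is not reported here, by role and by each gene's brightest probe, with bars of ± the scanner's technical error and dotted lines at 2-fold; open points were well above background on the HES1 array only. Stab2, Vcan and Tlr2 lie right of the upper 2-fold line and Hmmr left of the lower one, and the 7 UDP-sugar genes lie between -0.51 and 0.25.

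Of 12 matrix proteins that bind hyaluronan, or are carried on it, 6 were measured and 1 was past 2-fold. Vcan, the large hyaluronan-binding proteoglycan of loose and developing matrix, read 345 on the GFP array, against 808 on the HES1 array, 2.34-fold higher (1.23 ± 0.21). A second Vcan probe, designed on another RefSeq transcript, read 137 and 893, a difference of 2.71 ± 0.22, and the remaining probe was below background on both arrays. The 2 Vcan probes differed in size but not in direction. The brightest gave 0.89 under the normexp correction, which is within 2-fold and ends the call. Acan, the cartilage proteoglycan that link protein holds on hyaluronan, read 178 and 137 (-0.37 ± 0.24). The higher reading of Vcan thus stood beside a lower reading of Acan. Of all measured genes, 9.16% were as high or higher than Vcan and 25.4% as low or lower than Acan. The other measured proteins of this list, Ncan, Itih1, Itih2 and Itih4, were dim and lay between 0.32 and 0.51. Among them, Itih1 changed sign under the normexp correction.

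Of 10 further receptors and linkers, 8 were measured, of which 2 passed 2-fold upwards and 1 downwards. Stab2, a scavenger receptor that clears hyaluronan and is best known from sinusoidal endothelium, read 393 and 979, 2.49-fold higher (1.32 ± 0.21). Among 5 endothelial markers, Cdh5, Tek and Emcn were below background on both arrays. Pecam1 read 185 and 167 and Kdr 8354 and 8691, so that Kdr carried most of the summed signal of the list, which was 8567 on the GFP array, against 8899 on the HES1 array. The sinusoidal receptors Lyve1 and Stab1 were below background on both arrays. Tlr2, an innate receptor proposed to sense hyaluronan fragments, read 4940 and 11487 over 7 spots, with a difference of 1.22 and an SD of 0.07 between spots. Tlr4, likewise proposed, read 1100 and 1649 (0.58 ± 0.20). Layn, the membrane receptor layilin, was 0.80 ± 0.21 by 1 probe and 0.70 ± 0.21 by another. Among 7 macrophage markers Csf1r and Cd14 were seen on both arrays and Ptprc, at 25.2 and 47.8, on the HES1 array only. Lyz2, Tyrobp, Adgre1 and Laptm5 were below background on both arrays. The summed signals of the 7 were 2627 and 2665, of which Csf1r gave 1978 and 2030. The part of other cell types in the Stab2 and Tlr2 readings was not tested.

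Hmmr, which encodes a hyaluronan-binding protein that also works on the mitotic spindle, was the lowest of the wider list. It read 7404 on the GFP array, against 2893 on the HES1 array, 2.56-fold lower (-1.36 ± 0.20), and 2.12% of all measured genes were as low or lower. Of the proteins that tie CD44 to actin, Ezr read 2269 and 3180 (0.49 ± 0.20) and Rdx 7476 and 6013 (-0.31 ± 0.20). A second Rdx probe, designed on another RefSeq transcript, read 7786 and 5534 (-0.49 ± 0.20). Msn read 55847 and 56097 (0.01 ± 0.20).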

How the data were processed

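RNA of 2 samples (0.1 µg each) was labelled with Cy3 and hybridised to 1 array each, per the labels' protocols. The authors extracted the signals with Agilent Feature Extraction (version 10.10.1.1, in the submitters' processing notes), and the array was annotated on mm9, per the file headers. The deposited scanner files hold an intensity per spot, corrected for background and trend within the array and not scaled between arrays, as their headers record. The deposited table of values, also intensity, equalled that signal times 1.45 for GFP and 1.53 for HES1, with medians of 67.7 and 76.6.

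Processed signals were divided by the array's 75th percentile over its 59305 spots other than controls, and log2 was taken. Spots with an outlier flag on either array were left out (1053), 0 were saturated, and spots of a probe were averaged. Accessions were named through RefSeq (GRCm38.p6). A gene counted as measured if any probe was well above background on 1 array or both, and its brightest such probe stood for it. Where it was so on 1 array, the fold is a bound, taken against the higher of the dim signal and that array's lowest detected signal (38.1 for GFP, 39.0 for HES1). Calls needed 2-fold. All members were named, and of the wider list each gene past 2-fold and the largest difference per role; other genes were chosen after their values were seen, and 1 gene of the wider list, though counted, is not reported here. The members and lists were chosen with earlier results of these data known.

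The 235 probes with at least 8 spots had a median SD between spots of 0.07, and 8 spike-in controls differed by -0.11 to 0.10. Alternatives were quantile, median and loess (span 0.3) scaling, normexp (offset 50) with quantile normalization in limma 3.58.1, the deposited values, other filters on dim probes, other probe rules, outlier spots kept, bounds, and thresholds of 1.5-fold and 3-fold. The normexp alternative used median spot signals, since the files used here hold no mean spot signal. The averaging of spots and the 2-fold calls were checked on simulated data in which only bright probes were changed. That check did not cover the background filter, the bounds, loess or normexp.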

Additional observations from a re-analysis of the deposited data

How the results depend on the processing

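No paired analysis was possible because each group held 1 array. Of 62 recalculated differences of the 7 measured hyaluronan genes, 59 stayed within the gene's technical error. The other 3 were Has2 at 0.60 and Hyal1 at 0.66 under normexp, and Tnfaip6 at -0.16 by the median of its probes. Many of the 62 could hardly move, so their number is no measure of stability. The deposited values are the same signal times a constant per array. The other filters and the kept outlier spots left the readings of these genes unchanged where they gave one. So did the median over probes for a gene with 1 probe. Hyal1 dropped out where a gene had to be seen on both arrays, and so had 8 alternatives. Has2 spanned 0.60 to 0.99, Cd44 0.64 to 0.79 and Tnfaip6 -0.45 to -0.16 over 9 alternatives. The loess fit moved the median of all genes by 0.14, and no other scaling moved it by over 0.1. Alternatives for the medians were added after seeing the data: that of the members ran from 0.15 (normexp) to 0.44 (loess), and that of the wider list from 0.066 (normexp) to 0.28 (median scaling).

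The count of members at least 2-fold higher, 1 as reported, was 3 at 1.5-fold and 0 under normexp or where a gene had to be seen on both arrays. In the wider list 3 higher genes became 6 at 1.5-fold, 0 at 3-fold and 5 without a filter on dim probes, and 1 lower gene became 2 and 0 at these thresholds. Over all genes the 1582 higher became 2480 at 1.5-fold, 997 at 3-fold, 850 under normexp and 920 where both arrays were required. The 707 lower became 2084 at 1.5-fold, 178 at 3-fold and 339 under normexp. The cause was not tested, except that thresholds and filters change which genes count by construction. The normexp offset likewise shrinks the differences of dim probes by construction. Signals near background limit Has1, Has3, Hapln1 and Hyal1.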
